A study of Mus musculus with 12 samples.

Results

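The mRNAs of 9 glutamate receptor genes were followed through RNA immunoprecipitation and sequencing (RIP-seq) of the m6A-binding proteins YTHDF1, YTHDF2 and YTHDF3 in mouse hippocampal neurons. They were the 5 kainate receptor subunit genes, Grik1 to Grik5, and 4 metabotropic receptor genes, Grm3, Grm5, Grm7 and Grm8, taken by gene symbol from a count table of 55573 genes. All 9 were among the 17126 genes that passed the filter on low counts, a mean of at least 10 normalized counts over the libraries. Primary hippocampal neurons came from neonatal C57BL/6 mice, an inbred strain, and were kept in culture for 14 days. Each culture combined the hippocampi of littermates, male and female pups alike. Each of 4 groups had 3 libraries. Input was total RNA from part of the lysate, and the other groups were RNA recovered on beads carrying an antibody to endogenous YTHDF1, YTHDF2 or YTHDF3. No genotype or drug treatment set the groups apart. By the study's methods, pooled lysate of each replicate was split over the 3 RIPs and shared 1 input, so every comparison with input used the same 3 Input libraries. Beads with an unrelated antibody were not analysed here, and RNA that binds beads regardless of antibody is therefore not subtracted.

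Kainate receptors are glutamate-gated ion channels built from several subunits. The products of Grik1, Grik2 and Grik3 (GluK1, GluK2 and GluK3) can form channels on their own, whereas those of Grik4 and Grik5 (GluK4 and GluK5) bind glutamate with high affinity and need a partner. Metabotropic glutamate receptors are G protein-coupled. Grm5 encodes the Gq-coupled mGlu5, found mainly at postsynaptic sites of hippocampal neurons, and Grm3, Grm7 and Grm8 encode Gi-coupled receptors, of which mGlu7 and mGlu8 sit mainly in presynaptic terminals and mGlu3 is also made by glia. N6-methyladenosine (m6A) is a methylated adenosine in mRNA, and the YTHDF proteins are its cytoplasmic readers.

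m6A is placed within a short consensus, of which GGACT, in DNA letters, is the best-known form. The coding sequences of all 9 genes held it at least 1 time, as did 76.9% of the coding sequences of 13365 tested genes and 95.3% to 98.2% of those within 5% of each member's coding length. These counts are for the sense strand of the longest annotated coding sequence. Grm5 held 4 copies, Grik2 and Grik5 had 3 each, Grik1, Grik3, Grm3 and Grm7 had 2 each, and Grik4 and Grm8 had 1 each. The order differed over the whole of the same transcripts, untranslated ends included. There Grik2 held 9, Grik5 8, Grik3 7, Grm5 5, Grm3 3, Grik1 and Grm7 2 each, and Grik4 and Grm8 1 each. These whole-transcript counts are not scaled to length, and the transcripts carry unequal untranslated ends. They ran from 2942 bases for Grik1, of which 2847 are coding, to 9427 for Grik2, of which 2724 are coding. Per kilobase of coding sequence, Grm5 held 1.11 and Grik4 0.349, against a median of 1.05 over all the genes searched. Methylation itself was not measured in these libraries, so a match is a description of the letters only. The copy nearest the stop codon whose window lies in 1 exon is shown for the 2 receptors with the widest gap between RIPs (Grm5 and Grik2), the receptor enriched with all 3 proteins (Grm7) and a subunit not called in the fit of all libraries (Grik1). Capitals mark the 5 bases of the motif. The windows are transcript sense in GENCODE M21 on GRCm38.
Grm5, chr7:88130741-88130761, plus strand: gactcggtGGACTcggggagc
Grik2, chr10:49422545-49422565, minus strand: gcgctttgGGACTcgcttcat
Grm7, chr6:111358249-111358269, plus strand: ttgctgctGGACTtgtgagcc
Grik1, chr16:87914216-87914236, minus strand: tggctgcaGGACTcgtccttt

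Total counts per library ranged from 6020072 to 38909592, with the shallowest libraries in the YTHDF2 RIP. Values are given as CPM, counts scaled to a common library size with TMM factors (normalized CPM), and folds are relative to that scaling. In bulk RNA, fewer cells of a type and less RNA per cell cannot be told apart. Of the markers, the 6 genes of excitatory neurons summed to between 1068 and 1785 CPM over the 12 libraries, and the 6 of microglia to between 1.20 and 6.53. Astrocyte markers were also present, and their sum differed widely between replicates (see Grm3).

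The receptor mRNAs were present at very unequal levels in the neurons. Per kilobase of exon, Grik5 (27.2 ± 3.89 normalized CPM per kb, mean ± SD, n = 3 Input libraries) and Grm5 (25.3 ± 4.45) stood at the top, and their replicates overlapped. Grm3 followed at 9.68 ± 7.41, then Grik4 at 7.08 ± 0.732 and Grm7 at 6.15 ± 0.751. Without Input replicate 3, Grm3 came after both. Not divided by length, the order was Grm5, Grik5, Grik2, Grik3, Grik4, Grm7, Grm3, Grik1 and Grm8. Grik3 (5.29 ± 0.728), Grik2 (4.72 ± 0.167) and Grik1 (4.20 ± 1.79) lay close together. From Grm3 to Grik1 each gene overlapped the next in this order, so only the gaps below Grm5 and below Grik1 were wider than the replicate range. Grm8 was far below the others at 0.118 ± 0.0180 per kb, from 17, 17 and 9 counts in the 3 Input libraries. The highest member was 230.4 times the lowest. Grik5 stood at percentile 89.8 of the genes tested and Grm8 at percentile 1.75.

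**Figure D1:**
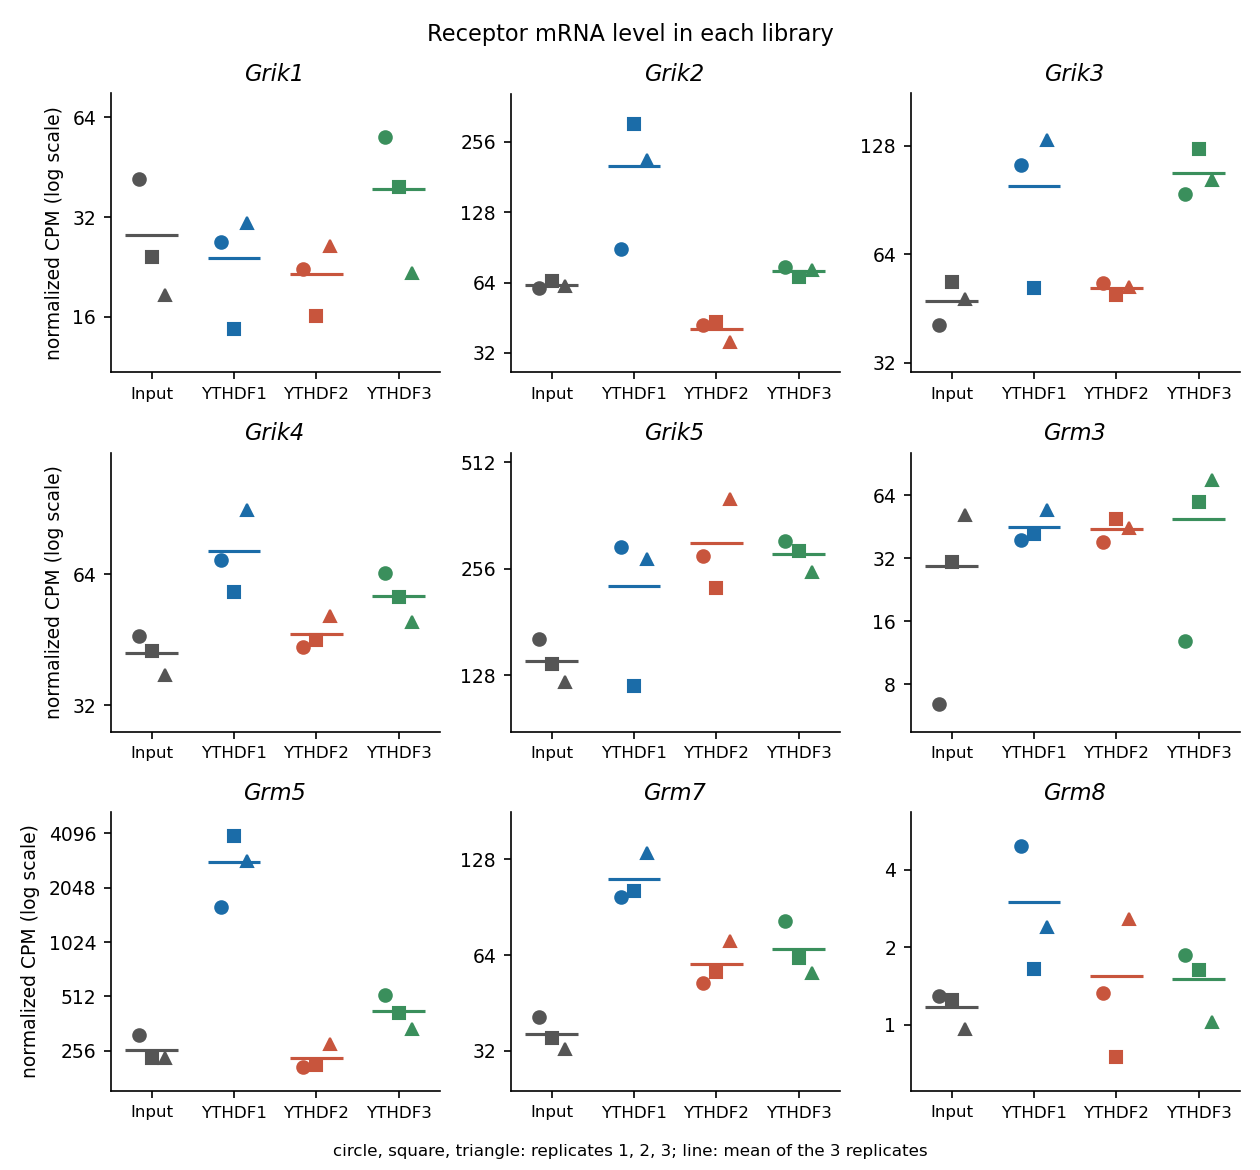
Normalized CPM (log axis, a range of its own in each panel) of each receptor mRNA in 3 libraries each of Input and of the RIPs of YTHDF1 to YTHDF3. Symbols are replicates 1 to 3 and lines are means. Grm5 reached between 1595 and 3987 with YTHDF1 and stayed between 207 and 523 in all other libraries.

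The YTHDF1 RIP held more mRNA of 6 of the 9 receptor genes than input, led by Grm5 at 10.9-fold, and less of none. Over all genes tested, 27.2% were called higher in the same comparison and 25.8% lower (at least 25% above or 20% below input, with an edgeR quasi-likelihood adjusted p of at most 0.05). The median log2 fold change of the 9 was 1.06, against 0.02 over all genes tested. Among the metabotropic receptors Grm5, Grm7 and Grm8 rose, and among the kainate subunits Grik2, Grik3 and Grik4. The replicates did not overlap with input for 5 of the 6, Grik3 being the exception. Over all genes, 27.9% lay wholly above input and 28% wholly below it, where no member lay.

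Grm5 (chr7:87584168-88134907 on GRCm38, plus strand) encodes mGlu5, the receptor that couples glutamate to phospholipase C and calcium release. Input libraries held 311, 233 and 232 normalized CPM, and YTHDF1 libraries held 1595, 3987 and 2898. The lowest YTHDF1 library was thus above the highest Input library by a wide margin. The log2 fold change was 3.45 ± 0.34 (SE, edgeR adjusted p = 1.75e-05), at percentile 98.8 of the genes tested. In the YTHDF2 RIP the gene stood at 207, 214 and 279, overlapping input, with a log2 fold change of -0.15 ± 0.31 (edgeR adjusted p = 0.734). In the YTHDF3 RIP it stood at 523, 414 and 338, every library above input, yet the log2 fold change of 0.72 ± 0.31 did not pass (edgeR adjusted p = 0.0909). In a fit of Input and YTHDF3 alone, paired by replicate number, it passed, at 0.76 ± 0.10 (edgeR adjusted p = 2.88e-07). Grm5 was also called in the fit of these 2 groups without pairing, and with DESeq2. It was not called when replicate numbers were added to the fit of all libraries.

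Grik2 (chr10:49094833-49788766, minus strand) encodes GluK2, the most widely used of the subunits that can form channels alone. It stood at 60.7, 64.9 and 61.8 normalized CPM in Input, and its 89.1, 306 and 214 in the YTHDF1 RIP gave a log2 fold change of 1.70 ± 0.33 (edgeR adjusted p = 0.00133). The YTHDF1 replicates spread over a far wider range than those of any other group, but all lay above input. In the YTHDF2 RIP Grik2 went the other way, with 42.3, 43.6 and 35.6 and every library below input. That difference of -0.63 ± 0.33 did not pass (edgeR adjusted p = 0.163). In the YTHDF3 RIP the values of 74.8, 67.4 and 72.4 lay just above input, a log2 fold change of 0.20 ± 0.33 (edgeR adjusted p = 0.666).

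Grm7 (chr6:110645581-111567230, plus strand) encodes mGlu7, a presynaptic receptor of low glutamate affinity. It was the member called with all 3 proteins. It stood at 41.0, 35.2 and 32.3 normalized CPM in Input, 97.8, 102 and 134 with YTHDF1, 52.4, 56.7 and 70.7 with YTHDF2, and 82.0, 62.6 and 56.1 with YTHDF3. No RIP library overlapped an Input library. The log2 fold changes were 1.62 ± 0.21, 0.73 ± 0.20 and 0.89 ± 0.20 (edgeR adjusted p = 8.31e-05, 0.0172 and 0.00496). The YTHDF2 call was lost under 5 of 12 alternatives (TMM before the filter, no filter, the length trend removed with or without the block, and 2 groups with the block), at edgeR adjusted p of up to 0.16.

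Grik3 and Grik4 passed with YTHDF1 at smaller sizes. Grik3 (chr4:125490700-125714173, plus strand), whose product GluK3 forms channels of low glutamate sensitivity, stood at 40.6, 53.7 and 48.1 in Input and at 113, 51.5 and 132 with YTHDF1. Replicate 2 of that RIP lay within the input range, and the log2 fold change was 1.06 ± 0.29 (edgeR adjusted p = 0.00899). Grik4 (chr9:42518135-42944493, minus strand), for the high-affinity GluK4, rose from 46.3, 42.8 and 37.6 to 68.9, 58.3 and 90.0, a log2 fold change of 0.78 ± 0.19 (edgeR adjusted p = 0.00465). Both calls were lost under 5 of 12 alternatives (library size alone, and the length trend removed or 2 groups fitted alone, each with or without the block), at edgeR adjusted p of up to 0.438 and 0.146. Grm8 (chr6:27275119-28135178, minus strand), for the presynaptic mGlu8, was near the limit of detection. It gave 17, 17 and 9 counts in Input and 43, 23 and 66 with YTHDF1, a log2 fold change of 1.32 ± 0.50 (edgeR adjusted p = 0.0433). That call was lost when any Input library or any of 4 RIP libraries was left out (7 of 12), with an adjusted p of up to 0.187. It was kept under only 4 of 11 alternatives, and the edgeR adjusted p reached 0.506 under the others.

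With YTHDF2, 2 of the 9 genes were higher than input and none lower, where 15.7% of all genes tested were called higher and 19% lower. They were Grik5 and Grm7. The median log2 fold change of the 9 was 0.14, against 0.02 over all genes. Lying wholly above input were 2 of the 9 (25.3% of all genes) and wholly below it 1, Grik2 (27.5% of all genes).

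Grik5 (chr7:25009849-25072346, minus strand) encodes GluK5, the high-affinity subunit that commonly joins GluK2. It was the kainate subunit with the highest YTHDF2 fold. It stood at 162, 137 and 122 normalized CPM in Input and at 279, 225 and 404 in the YTHDF2 RIP, every library above input, for a log2 fold change of 1.11 ± 0.32 (edgeR adjusted p = 0.0194). In the YTHDF3 RIP it stood at 307, 288 and 250, also above input, with 1.00 ± 0.32 (edgeR adjusted p = 0.0263). The YTHDF1 RIP gave 294, 120 and 272, of which replicate 2 was at the level of input, and the difference of 0.70 ± 0.32 did not pass (edgeR adjusted p = 0.0819). Without that library it passed, at 0.94 (edgeR adjusted p = 0.00619). The YTHDF2 calls of both Grik5 and Grm7 were lost without Input replicate 2 or 3 or without YTHDF2 replicate 3, at edgeR adjusted p of up to 0.0825 and 0.0694. The YTHDF3 call of Grik5 was lost without Input replicate 2 or 3 or YTHDF3 replicate 1 or 2, at edgeR adjusted p between 0.0562 and 0.0808.

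With YTHDF3, 3 of the 9 genes were higher than input and none lower, where 16.4% of all genes tested were called higher and 23% lower. They were Grik3, Grik5 and Grm7. The median log2 fold change was 0.72, against 0.05 over all genes. Wholly above input lay 6 of the 9 (26.6% of all genes) and none wholly below it (29.1%), since Grik2, Grik4 and Grm5 did not overlap input without passing the test. Grik3 stood at 93.9, 126 and 103 in the YTHDF3 RIP, every library above input, with 1.18 ± 0.29 (edgeR adjusted p = 0.00701). In the YTHDF2 RIP its 53.3, 49.3 and 51.9 overlapped input, with 0.12 ± 0.29 (edgeR adjusted p = 0.777). Grik4 gave 0.14 ± 0.19 with YTHDF2 and 0.43 ± 0.19 with YTHDF3 (edgeR adjusted p = 0.582 and 0.0881).

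Libraries of the YTHDF3 RIP and Input with the same replicate number deviated together, which was not seen between Input and the other proteins. In all 9 genes the YTHDF3 library exceeded the Input library of the same number in each of the 3 pairs. The share of all genes tested that did the same was not counted, so this count does not set the receptors apart from other genes. The lowest log2 ratios were small for Grik2 (0.05) and Grm8 (0.09). The log2 ratio within a pair ran from 0.40 to 0.48 for Grik4, from 0.54 to 0.83 for Grm5, from 1.09 to 1.23 for Grik3 and from 0.22 to 0.70 for Grik1. With the replicate number as a block in a fit of these 2 groups, 7 of the 9 genes were called higher, and none lower, where 36.3% and 32.2% of all genes tested were. Those added were Grik1 (0.51 ± 0.11), Grik4 (0.49 ± 0.10), Grm3 (0.89 ± 0.11) and Grm5 (0.76 ± 0.10), at edgeR adjusted p between 1.08e-07 and 0.000258. Grik2 and Grm8 were not called. The fit of the same 2 groups without the block already called Grik4 and Grm5, but not Grik1 or Grm3.

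**Figure D2:**
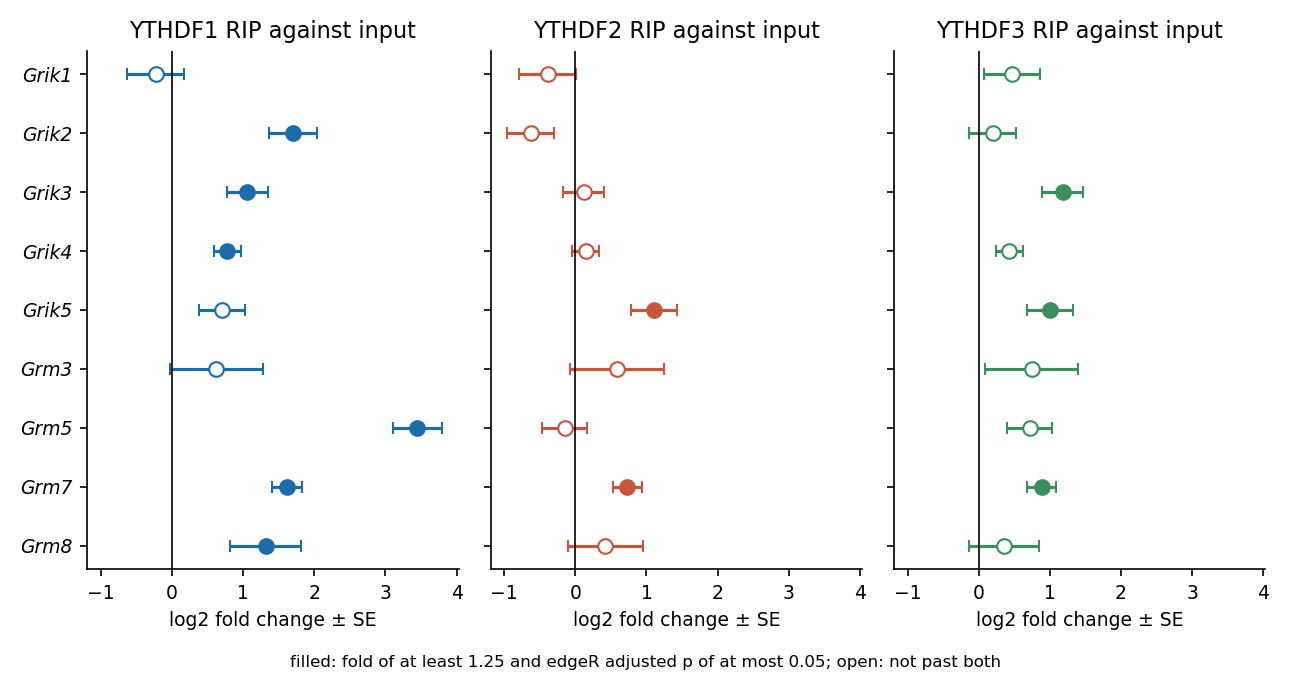
Log2 fold change over input (points, with SE as bars) of the 9 receptor mRNAs in the YTHDF1, YTHDF2 and YTHDF3 RIPs, from the edgeR fit of all 12 libraries. Filled points passed both thresholds. Grm5 at 3.45 with YTHDF1 lies apart from every other value, and Grm7 is filled in all 3 panels.

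Grm3 and Grik1 were not called with any protein in the fit of all libraries, and both varied more between replicates of Input than between groups. Grm3 (chr5:9485541-9725170, minus strand) stood at 6.39, 30.6 and 51.5 normalized CPM in Input, 39.2, 41.7 and 54.6 with YTHDF1, 38.3, 49.1 and 44.8 with YTHDF2, and 12.8, 59.3 and 75.8 with YTHDF3. Replicate 1 was low in Input and in the YTHDF3 RIP. The log2 fold changes of 0.62 ± 0.65, 0.58 ± 0.66 and 0.75 ± 0.65 had edgeR adjusted p of 0.448, 0.518 and 0.396. Summed over 6 astrocyte markers (Gfap, Aqp4, Aldh1l1, Slc1a3, S100b and Gja1, none at 0 in every library), CPM were 259, 1258 and 2524 in Input, 332, 1193 and 748 with YTHDF1, 654, 1308 and 1053 with YTHDF2, and 194, 854 and 1557 with YTHDF3. The summed astrocyte markers were thus lowest in replicate 1 of every group. Pdgfra, a marker of oligodendrocyte precursors, was at 0.532 in Input replicate 1 and 0.894 in YTHDF3 replicate 1, against 79.5 to 246 in the other libraries. The part of glial RNA in the Grm3 values was not tested.

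Grik1 (chr16:87895900-88290265, minus strand) encodes GluK1, a subunit prominent in hippocampal interneurons. It stood at 41.7, 24.3 and 18.6 in Input, 26.9, 14.7 and 30.8 with YTHDF1, 22.3, 16.1 and 26.3 with YTHDF2, and 56.0, 39.5 and 21.7 with YTHDF3. All groups overlapped, and the log2 fold changes were -0.23 ± 0.40, -0.39 ± 0.40 and 0.47 ± 0.40 (edgeR adjusted p = 0.658, 0.483 and 0.382). Without Input replicate 1, the first 2 turned to 0.17 and 0.0074. The 6 interneuron markers (Gad1, Gad2, Slc32a1, Sst, Pvalb and Vip, none at 0 in every library) summed to 693, 497 and 209 CPM in Input, 576, 183 and 550 with YTHDF1, 292, 106 and 331 with YTHDF2, and 697, 420 and 159 with YTHDF3. Within each group the replicate with the lowest marker sum was also the one with the lowest Grik1, in 4 of 4 groups. The match was not particular to interneuron markers. The sum of the 6 excitatory neuron markers was lowest in the same replicates, at 1068.4 CPM in Input, 1372.5 with YTHDF1, 1069.5 with YTHDF2 and 1204.5 with YTHDF3. The part of interneuron number in the Grik1 values was not tested.

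**Figure D3:**
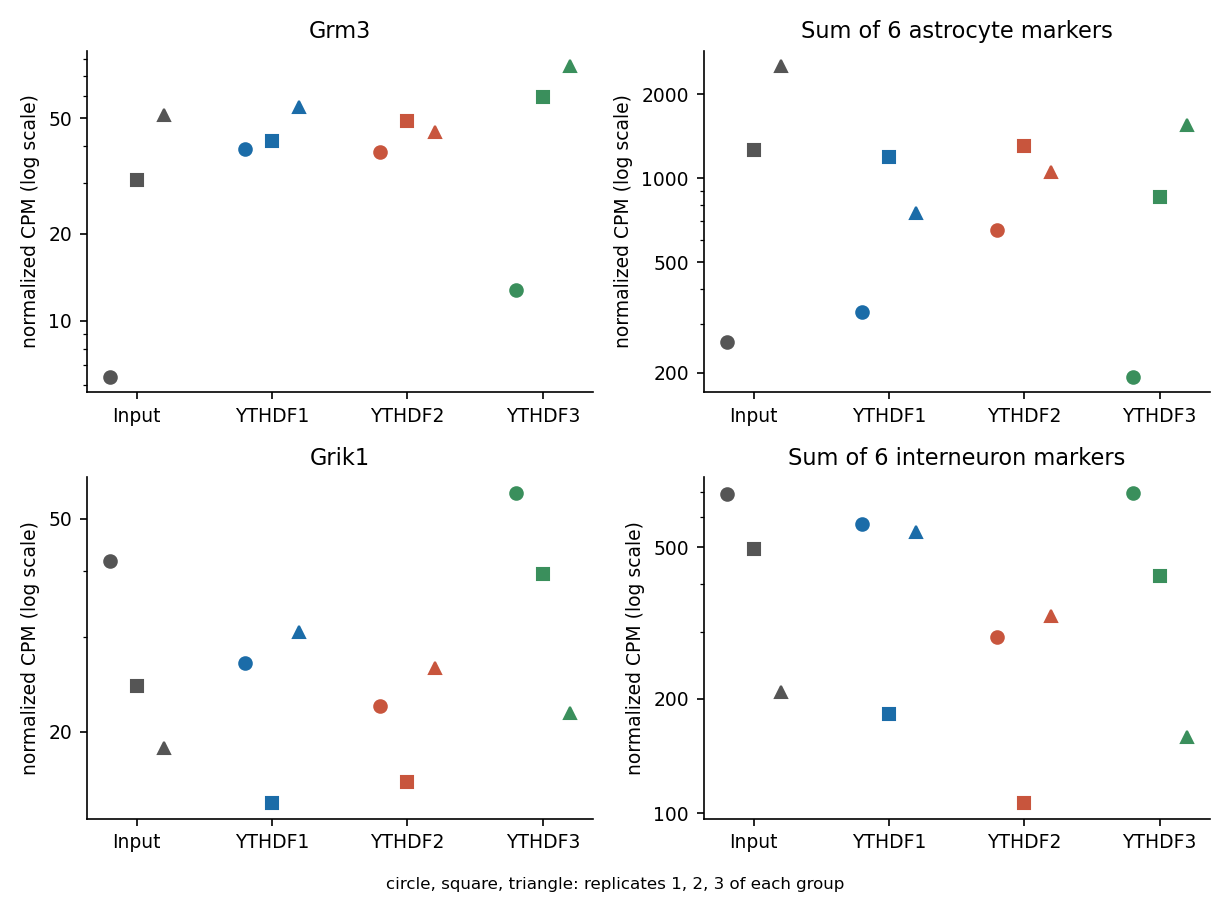
Normalized CPM (log axes) of Grm3, of the summed astrocyte markers, of Grik1 and of the summed interneuron markers in each library, with symbols for replicates 1 to 3. Grm3 and the astrocyte sum are low in replicate 1 of Input and YTHDF3, and Grik1 and the interneuron sum are lowest in replicate 3 of Input and YTHDF3 and in replicate 2 of YTHDF1 and YTHDF2.

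Between the RIPs, Grm5 and Grik2 were the members that set YTHDF1 apart. A member was called here at a fold of at least 2. From YTHDF1 to YTHDF2, 2 of the 9 genes were higher with YTHDF1 and none lower, where 11.4% and 6.1% of all genes were. Grm5 differed by 3.60 ± 0.34 on the log2 scale and Grik2 by 2.33 ± 0.34 (edgeR adjusted p = 4.57e-05 and 0.000522). Replicates did not overlap for 4 members, these and Grik4 and Grm7, all higher with YTHDF1 (20.4% of all genes higher and 16.2% lower). Against YTHDF3 the same 2 genes were called higher with YTHDF1 and none lower, where 10.8% and 3.63% of all genes were. Grm5 differed by 2.73 ± 0.33 and Grik2 by 1.51 ± 0.33 (edgeR adjusted p = 0.000276 and 0.00788). Here 3 members did not overlap, all higher with YTHDF1 (20.9% of all genes higher and 12.2% lower). Without YTHDF1 replicate 2, the Grik2 difference from YTHDF3 was 0.95 and fell under the fold required.

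Smaller differences between YTHDF1 and YTHDF2 passed the adjusted p but not the fold. They were Grik3 at 0.94 ± 0.29, Grik4 at 0.64 ± 0.19 and Grm7 at 0.89 ± 0.20 (edgeR adjusted p = 0.0305, 0.0266 and 0.00732). Grm7 also differed by 0.73 ± 0.20 between YTHDF1 and YTHDF3 (edgeR adjusted p = 0.0239). Grik5 was not shown to differ between any 2 proteins, since its differences of -0.41 ± 0.32, -0.30 ± 0.32 and 0.11 ± 0.32 had adjusted p of 0.393, 0.549 and 0.879 (edgeR) and 95% intervals of -1.1 to 0.29, -0.99 to 0.39 and -0.59 to 0.80. From YTHDF2 to YTHDF3, 1 of the 9 genes was lower with YTHDF2 and none higher, where 1.16% and 3.95% of all genes were. It was Grik3, at -1.06 ± 0.29 (edgeR adjusted p = 0.0456), with no overlap of replicates. Grik2 and Grm5 also lay wholly lower with YTHDF2 and no member wholly higher (14% and 21.8% of all genes), but their differences of -0.82 and -0.87 did not pass (edgeR adjusted p = 0.147 and 0.109). That call of Grik3 was lost in 9 of 12 fits that left out 1 library, with an adjusted p of up to 0.156. In a test of all 3 RIPs together, 4 of the 9 genes differed (32.3% of all genes). These were Grm5, Grik2, Grm7 and Grik3, at edgeR adjusted p of 3.47e-05, 0.000854, 0.0105 and 0.0297.

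The share of each receptor in its family was read in every library, as a description with no test. Of the summed CPM per kb of the 4 metabotropic receptors, Grm5 took 61.8 ± 13.6% in Input, 87.9 ± 4.39% with YTHDF1, 47.7 ± 2.82% with YTHDF2 and 59.9 ± 12.6% with YTHDF3 (mean ± SD, n = 3). Its YTHDF1 libraries, at 83.9%, 92.6% and 87.4%, were all above the highest Input library (76.8%), and the other RIPs overlapped Input. Grm7 took 15.1 ± 2.73% in Input and 21.4 ± 0.766% with YTHDF2, where every library was above Input. With YTHDF1 it took 6.69 ± 2.43%, every library below Input. A share depends on the other members of the family, so it can fall while the gene's own level rises. Grm7 itself was 3.07-fold above input with YTHDF1. Of the 5 kainate subunits, Grik5 took 56.0 ± 1.39% in Input, 49.7 ± 13.0% with YTHDF1, 74.0 ± 4.52% with YTHDF2 and 62.5 ± 0.657% with YTHDF3. The YTHDF2 and YTHDF3 libraries were all above Input, whereas those of YTHDF1 lay on both sides of it. Grik2 took 9.83 ± 1.28% in Input, 4.11 ± 1.29% with YTHDF2 and 6.24 ± 0.769% with YTHDF3, with every library of both RIPs below Input, and 7.32%, 36.1% and 15.6% in the 3 YTHDF1 libraries.

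**Figure D4:**
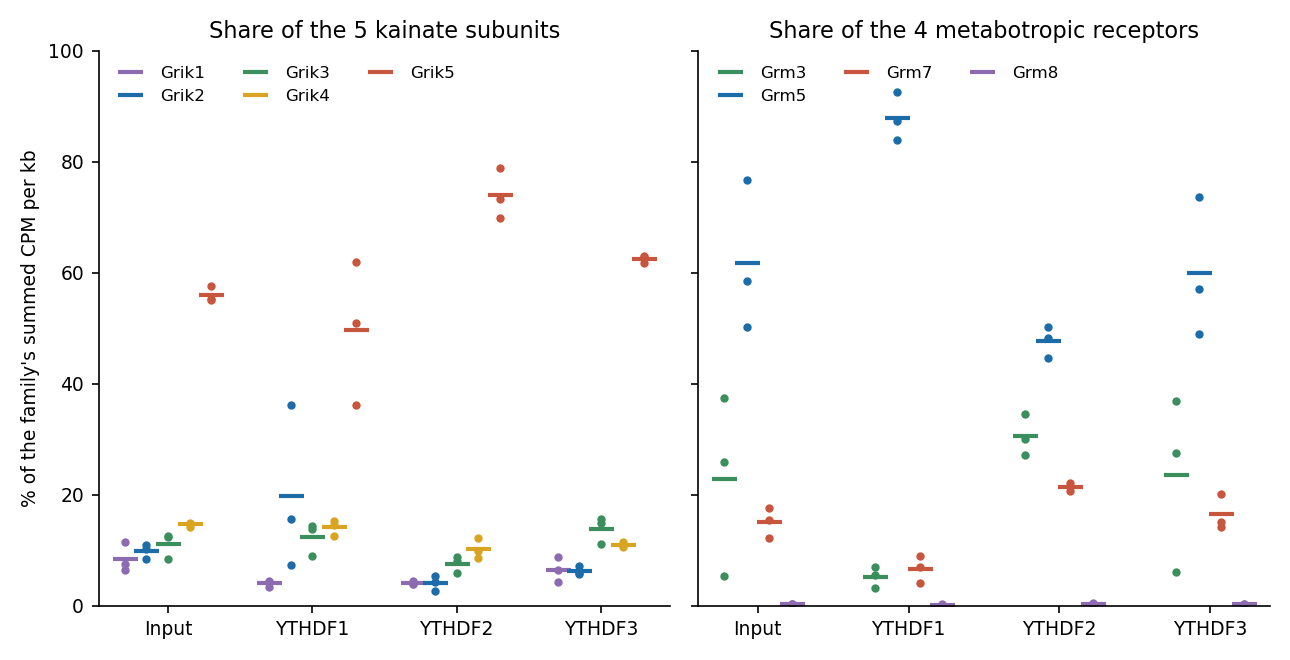
Share (in percent) of each kainate subunit in the family's summed CPM per kb (left) and of each of the 4 metabotropic receptors in theirs (right), with points for libraries and bars for means. Grm5 rises to 87.9% with YTHDF1, and Grik5 to 74.0% with YTHDF2.

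Exonic length went with enrichment across the genes, and the receptor genes are long. Over the 17126 genes tested, the Spearman correlation of exonic length with log2 fold change was 0.459, 0.379 and 0.519 for YTHDF1, YTHDF2 and YTHDF3, a description across genes of the same libraries. The members ranged from 3.05 kb (Grm3) through 5.17 kb (Grik5) to 10.2 kb (Grm5) and 13.2 kb (Grik2), and 8 of them were longer than at least 64.6% of the genes tested. With the length trend of each library removed, the YTHDF1 RIP kept calls for 2 members, both higher (22.2% of all genes higher and 24.6% lower), Grm5 at 2.56 ± 0.31 and Grm7 at 1.23 ± 0.21 (edgeR adjusted p = 7.4e-05 and 0.000698). Grik2 then stood at 0.55 ± 0.31 with YTHDF1 (edgeR adjusted p = 0.168). With YTHDF2 Grik5 stayed higher at 0.92 (edgeR adjusted p = 0.049; 13% of all genes higher) and Grik2 was called lower at -1.06 ± 0.31 (edgeR adjusted p = 0.0246; 16.4% of all genes lower). With YTHDF3 1 member remained, Grm7 at 0.65 (edgeR adjusted p = 0.0353; 15.2% of all genes higher and 16.8% lower). Grm5 and Grik2 still differed between YTHDF1 and YTHDF2, by 3.10 ± 0.31 and 1.61 ± 0.32 (edgeR adjusted p = 6.52e-05 and 0.00323; 9.13% of all genes higher and 7.35% lower). Against YTHDF3 Grm5 differed by 2.37 ± 0.30 (edgeR adjusted p = 0.000388; 7.06% of all genes higher and 5.88% lower), and Grik2 fell under the fold at 0.99. Between YTHDF2 and YTHDF3 no member was called (2.59% of all genes higher and 1.79% lower), with Grik3 at -0.95 (edgeR adjusted p = 0.0607).

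**Figure D5:**
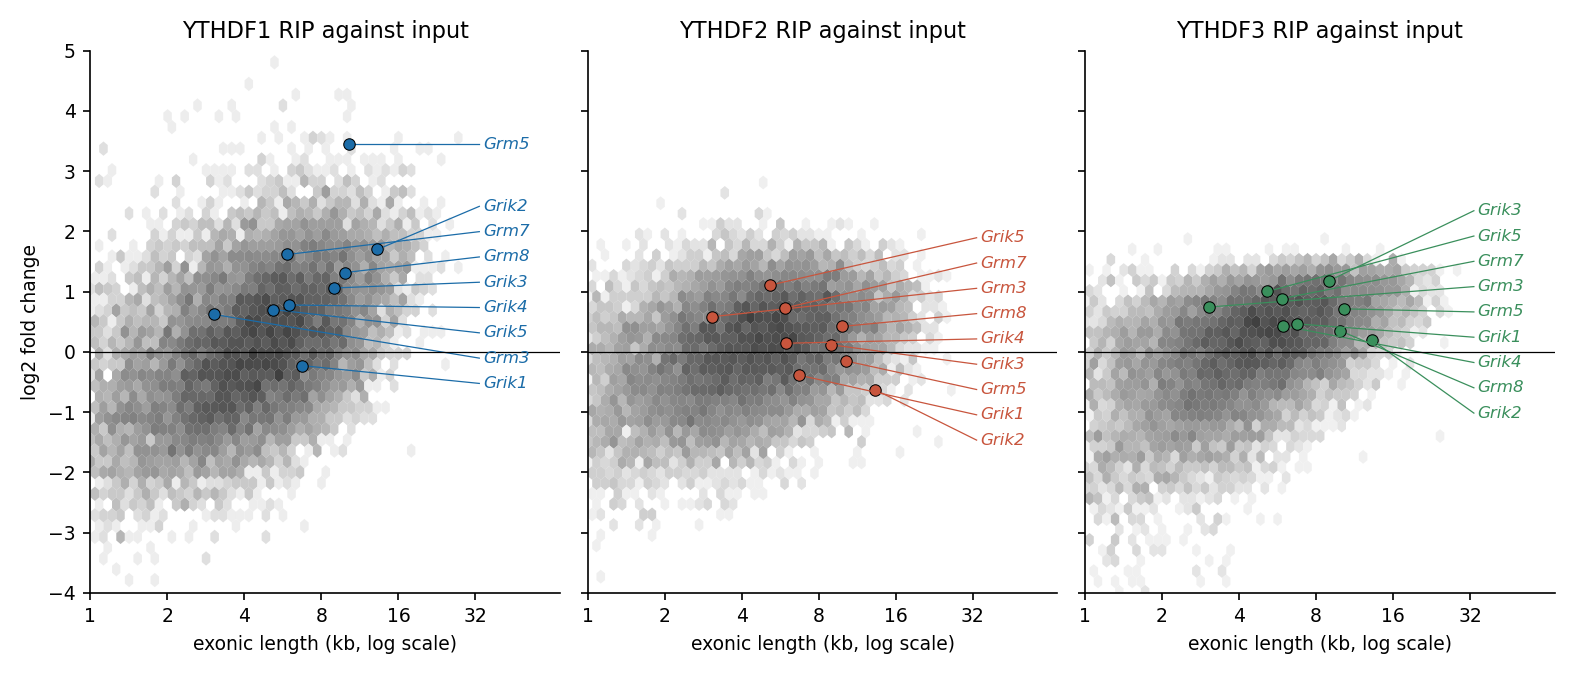
Log2 fold change over input against exonic length (kb, log axis) for each RIP, with all genes tested as grey density and the 9 receptor genes as coloured points. Genes outside the axes are not drawn. Grm5 (10.2 kb) lies at 3.45 with YTHDF1, and Grik2, the longest member (13.2 kb), lies at 1.70 with YTHDF1 and at -0.63 with YTHDF2.

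The receptors' relatives and partner genes were read from lists by count, beside the share of all genes tested that was called (27.2% higher and 25.8% lower with YTHDF1, 15.7% and 19% with YTHDF2, and 16.4% and 23% with YTHDF3). Of 3 other metabotropic receptor genes, Grm6 was not tested (0 counts in Input), and neither Grm2 nor Grm4, both for Gi-coupled receptors, passed against input with any protein. Their log2 fold changes were 0.85 and 0.30 with YTHDF1, 0.52 and 0.51 with YTHDF2, and 0.88 and 0.93 with YTHDF3 (edgeR adjusted p between 0.0777 and 0.534).

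Of 10 kainate receptor auxiliary and partner genes, 4 were higher and none lower than input with YTHDF1 (median log2 fold change 0.57, against 0.02 over all genes). Neto1 and Neto2, the auxiliary subunits that slow kainate receptor currents, rose by 1.70 ± 0.55 and 2.20 ± 0.33 (edgeR adjusted p = 0.0208 and 0.00022). Neto2 stood at 57.2, 47.9 and 45.6 normalized CPM in Input, 106, 332 and 255 with YTHDF1, and 19.1, 17.0 and 19.7 with YTHDF2. Its YTHDF2 libraries were all below input, and here the fall of 1.43 ± 0.33 passed (log2 fold change -1.43, edgeR adjusted p = 0.006). Between YTHDF1 and YTHDF2 Neto2 differed by 3.63 ± 0.35 and Neto1 by 2.62 ± 0.57 (edgeR adjusted p = 4.58e-05 and 0.00528). The scaffold Pick1 rose with YTHDF1 and YTHDF2, at 0.66 and 0.89 (edgeR adjusted p = 0.00621 and 0.00225), and the scaffold Grip1 with YTHDF1 and YTHDF3, at 0.97 and 0.80 (edgeR adjusted p = 0.00163 and 0.0071). The list thus counted 1 higher and 1 lower with YTHDF2 and 1 higher and none lower with YTHDF3.

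Of 12 metabotropic receptor partners, 4 were higher and 1 lower with YTHDF1, 3 and 0 with YTHDF2, and 1 and 1 with YTHDF3, with medians of 1.08, 0.09 and 0.45 against 0.02, 0.02 and 0.05 over all genes. Gprasp1, which sorts G protein-coupled receptors after uptake, was higher in each, 5.38-fold, 2.38-fold and 2.24-fold (edgeR adjusted p = 5.97e-05, 0.00588 and 0.00681). The ubiquitin ligase gene Siah1a rose with YTHDF1 and YTHDF2, at 2.41 and 0.80 (edgeR adjusted p = 1.21e-05 and 0.0155), and the phosphatase gene Ppp1cc with YTHDF2, at 0.49 (edgeR adjusted p = 0.0309). Homer1, the scaffold that ties mGlu5 to the postsynaptic density, gave 1.31 ± 0.31 with YTHDF1, -0.03 ± 0.30 with YTHDF2 and 0.48 ± 0.30 with YTHDF3, of which the first passed (edgeR adjusted p = 0.00384, 0.948 and 0.232). Homer3 fell with YTHDF1 (log2 fold change -0.60, edgeR adjusted p = 0.0275) and Cyth2 with YTHDF3 (-0.81, edgeR adjusted p = 0.014).

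Of 14 genes that signal downstream of the metabotropic receptors, 4 were higher and 2 lower with YTHDF1, 1 and 1 with YTHDF2, and 4 and 1 with YTHDF3, with medians of 0.53, 0.05 and 0.47 against 0.02, 0.02 and 0.05 over all genes. Plcb1, the phospholipase that Gq activates, and Itpr1, the calcium-release channel behind it, rose by 1.82 and 1.51 with YTHDF1 and by 1.24 and 1.16 with YTHDF3 (edgeR adjusted p = 0.000417, 0.000504, 0.00588 and 0.00369). Itpr1 was the 1 gene of this list that rose with YTHDF2, at 0.74 (edgeR adjusted p = 0.0408). The adenylyl cyclase gene Adcy1 rose with YTHDF1 and YTHDF3, at 1.50 and 1.39 (edgeR adjusted p = 0.0182 and 0.0333), and Dagla, an enzyme of endocannabinoid synthesis, with YTHDF3, at 0.98 (edgeR adjusted p = 0.0227). The 2 genes of the list that fell both encode G protein subunits, Gnai2 with YTHDF1 and YTHDF3 (log2 fold changes -1.37 and -1.58, edgeR adjusted p = 0.00805 and 0.005) and Gna11 with YTHDF1 and YTHDF2 (-0.62 and -0.68, edgeR adjusted p = 0.0118 and 0.0119). The other G protein genes of the list, Gnaq, Gnao1 and Gnai1, were not called with any protein (edgeR adjusted p between 0.0717 and 0.995).

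Across the 12 libraries, the gene whose log2 CPM was most like each member's was read from 10527 genes (10528 for Grm8) with a symbol and a mean of at least 100 normalized counts. The closest were Thsd7a for Grm5 (Pearson r = 0.99), Trim33 for Grik2 (0.99), Lrpprc for Grm7 (0.99), Csmd1 for Grik4 (0.98), Sox6 for Grm3 (0.98), Atg13 for Grik5 (0.97), Tmeff2 for Grik1 (0.95), Kansl1 for Grik3 (0.95) and Dipk1a for Grm8 (0.92). The libraries of a group share their antibody and the groups differ in depth, so these values describe the 12 libraries and carry no test. Among the members themselves, Grm5 and Grik2 (r = 0.92) and Grm7 and Grik4 (r = 0.92) ran closest together, and Grm3 and Grik1 ran most apart (r = -0.59).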

How the data were processed

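RIP-seq libraries were made by the authors with a stranded total-RNA kit with unique molecular identifiers (UMIs). Per the labels and methods, UMIs were read with UMI-tools 1.1.1, reads trimmed with cutadapt 3.4, aligned to mm10 (GRCm38) with STAR 2.7.7a and deduplicated by UMI. Raw gene counts, deposited as a table, came from featureCounts 2.0.1 with Ensembl annotation and the reverse-stranded setting. A read that overlapped several genes, or aligned in several places, was counted for each. On the same strand, Grik4 shares 59 exonic bases with Gm24420 and Grm8 96 with Mir592, and the other members share none. The authors' DESeq2 tables hold means, fold changes and p-values, which were not used; gene symbols were taken from them.

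Genes with a mean of at least 10 TMM-normalized counts were tested in 1 model of 4 groups with edgeR 4.0.16 (R 4.3.3) quasi-likelihood F tests and Benjamini-Hochberg adjustment over 17126 genes. The biological coefficient of variation was 0.323. Calls against input needed a rise of at least 25% or a fall of at least 20%, and calls between RIPs a fold of at least 2, both with an adjusted p of at most 0.05. SE was obtained from each log2 fold change and its F statistic. Log2 CPM used a prior count of 2. Alternatives were DESeq2 1.42.0, other scalings and filters, the replicate block, fits of 2 groups, removal of the length trend (loess, span 0.3, on each gene's deviation from its own mean) and leaving out each library. The code was tested on simulated data. Earlier results of these data were known when the members, the gene lists and the naming rule were chosen. Results for 2 listed genes are not reported here. All 9 members are named throughout, and from each list, in each RIP, the 2 highest and 2 lowest genes among those past the threshold and Neto1, Neto2 and Homer1.

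Whether replicate numbers pair the libraries was checked by correlating deviations from group means between libraries of the same number. They were 0.829, 0.528 and 0.804 for Input and YTHDF3, between -0.322 and 0.091 for Input and YTHDF1, and between -0.323 and 0.178 for Input and YTHDF2. Libraries of YTHDF1 and YTHDF2 with the same number gave 0.059, 0.544 and 0.348, and so did not deviate together in every pair. Only Input and YTHDF3 were therefore treated as paired. The methods describe 1 lysate divided over the 3 RIPs, but whether a YTHDF1 or YTHDF2 number marks the lysate of the same Input number is not known, and blocked values for those RIPs rest on the number alone. Replicates were separate lysates per the methods. Total counts per library were 9092494 to 13833973 in Input, 10037804 to 38909592 with YTHDF1, 6020072 to 9259893 with YTHDF2 and 21395271 to 22400602 with YTHDF3.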

Additional observations from a re-analysis of the deposited data

Results flagged for a closer look

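Differences between the proteins themselves were called for 3 receptor genes, by the edgeR test of 1 RIP against another. Grm5 was higher with YTHDF1 than with YTHDF2 by 3.60 and than with YTHDF3 by 2.73 on the log2 scale. Grik2 was higher with YTHDF1 than with YTHDF2 by 2.33 and than with YTHDF3 by 1.51, of which the second was lost under 5 of 12 alternatives, at an edgeR adjusted p of up to 0.197, and without YTHDF1 replicate 2. Grik3 was lower with YTHDF2 than with YTHDF3, at -1.06, a call lost in 9 of 12 fits without 1 library and under 4 of 12 alternatives, at edgeR adjusted p of up to 0.156 and 0.088. The groups of 3 libraries are too small for an outlier test.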

How the results depend on the processing

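Counts of called members moved as follows. With library size alone YTHDF1 had 3 higher, YTHDF3 5, YTHDF1 against YTHDF3 1 higher and 1 lower (Grik1), and YTHDF2 against YTHDF3 3 lower. The median over all genes then moved to -0.38, 0.09 and 0.38 for the 3 RIPs, and all genes called against input went from 4662 higher and 4414 lower to 3087 and 6219 with YTHDF1, and from 2817 and 3940 to 4822 and 3031 with YTHDF3. TMM before the filter, and no filter, left 1 higher with YTHDF2, and no filter gave 4 lower for YTHDF2 against YTHDF3. All genes called higher with YTHDF2 were then 2072 and 2037 rather than 2693. Without the filter, all genes called lower for YTHDF2 against YTHDF3 were 769 rather than 198. TMM over protein-coding genes gave 5 higher with YTHDF1, moved the median over all genes to -0.22 and the calls over all genes to 3675 higher and 5520 lower. TMM before the filter moved the YTHDF3 median to 0.18. With YTHDF3, DESeq2 and no filter each gave 4 higher, and with YTHDF1 a minimum mean of 50 and the block in all libraries each gave 5. All genes called higher with YTHDF3 were then 3428 and 3248 (the latter of 44478 genes) rather than 2817. With YTHDF1 they were 3771 (of 13016 genes) and 4561 rather than 4662. Removing the length trend left 2 higher with YTHDF1, 1 higher and 1 lower with YTHDF2, 1 higher for YTHDF1 against YTHDF3 and 0 for YTHDF2 against YTHDF3, with or without the block, and 1 higher with YTHDF3 without it. Fits of 2 groups, with or without the replicate block, gave 3 higher with YTHDF1, 1 lower with YTHDF2 and 1 higher for YTHDF1 against YTHDF3. For YTHDF3 they gave 5 higher without the block and 7 with the replicate numbers as pairs. All genes called higher, without and with the block, were then 3764 and 6212 with YTHDF3, and 3414 and 2393 with YTHDF1. With the block YTHDF2 had 1 higher and YTHDF2 against YTHDF3 0, also 0 with the block in all libraries. Leaving out 1 library gave 5 to 7 higher with YTHDF1, 0 to 2 higher and 0 to 1 lower with YTHDF2, 2 to 5 higher with YTHDF3, 2 to 3 and 1 to 2 higher for YTHDF1 against YTHDF2 and YTHDF3, and 0 to 1 lower for YTHDF2 against YTHDF3. YTHDF2 had 0 higher without Input replicate 2 or 3 or YTHDF2 replicate 3, and YTHDF3 had 5 without YTHDF1 replicate 2. In these fits all genes called higher were 1909, 1920 and 2116 with YTHDF2, and 3650 with YTHDF3. The cause was not tested. Grm8, with 5 to 66 counts a library, is limited by depth and was not tested at a minimum mean of 50.

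Directions turned only in differences that had not passed. For YTHDF1 against YTHDF2, Grik1 went to -0.29 (library size), -0.052 (length removed) and -0.078 (with the block too), and Grm3 to -0.45 (library size), -0.11 (TMM over protein-coding genes), -0.075 (minimum mean of 50), -0.013 (2 groups) and -0.019 (2 groups, block). For YTHDF1 against YTHDF3, Grik4 went to -0.37 (library size), and Grm3 to 0.19 (block) and 0.091 (length removed, block). For YTHDF2 against YTHDF3, Grik5 went to -0.16 (library size), -0.12 (TMM before the filter, and no filter), -0.011 (2 groups) and -0.052 (2 groups, block), Grm8 to -0.20, -0.15, -0.15, -0.037 and -0.11 under the same 5, and Grm3 to 0.17 (block), 0.0045 (length removed, block) and 0.029 (2 groups, block). Against input with the length trend removed, without and with the block, YTHDF2 gave -0.23 and -0.23 for Grik3 and -0.091 and -0.084 for Grik4, and YTHDF3 -0.44 and -0.43 for Grik2 and -0.15 and -0.15 for Grm8. Without 1 library, values ran from -0.55 to 0.17 (Grik1, YTHDF1), -0.64 to 0.0074 (Grik1, YTHDF2), -0.30 to 0.0037 (Grm5, YTHDF2) and -0.17 to 0.74 (Grm8, YTHDF2). Between RIPs they ran from -0.062 to 0.36 (Grik1) and -0.12 to 0.13 (Grm3) for YTHDF1 against YTHDF2, from -0.39 to 0.068 (Grik3) and -0.58 to 0.32 (Grm3) for YTHDF1 against YTHDF3, and from -0.16 to 0.28 (Grik5), -0.62 to 0.29 (Grm3), -0.29 to 0.015 (Grm7) and -0.52 to 0.38 (Grm8) for YTHDF2 against YTHDF3.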
